A study of Homo sapiens with 12 samples.

Results

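Mitosis and G2/M genes were followed through RNA-seq libraries of a pair of triple-negative breast cancer cell lines, untreated or given interferon-β. The 47 genes were listed by name for their part in the passage from G2 through cell division and fall into 10 roles, from the cyclin B kinase to condensin. They were found by symbol among the 61552 genes of the count tables, and all 47 were among the 18121 genes that passed a filter on low counts.

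The study holds 12 libraries in 4 groups of 3. HCC38 cells (in RPMI-1640 medium) and MDA-MB-231 cells (in DMEM with low glucose) are established lines from human breast tumours without oestrogen, progesterone or HER2 receptors. The labels give both lines as WT, and each was left untreated or kept for 48 h with 400 IU/mL of interferon-β, a type I interferon. A difference between the lines and a difference between their media cannot be told apart. The labels number biological replicates without saying whether these were separate cultures, so p-values measure the spread between these libraries.

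Cells enter mitosis when CDK1 bound to cyclin B is switched on by CDC25 phosphatases, with PLK1 and the Aurora kinases acting beside it. The spindle checkpoint then holds the anaphase-promoting complex until every chromosome is attached, after which separase cuts cohesin and the cell divides. Most genes for these steps are transcribed in G2 and M, through CCAAT boxes and a cell cycle genes homology region (CHR) bound by the DREAM and B-MYB-MuvB complexes and by FOXM1, so their summed mRNA is a common measure of how many cells of a culture are dividing. In bulk RNA, fewer cells in G2 or M and less of each mRNA per cell cannot be told apart.

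The MDA-MB-231 libraries fell into 2 sets by the numbers their deposited files carry. Untreated replicates 1 and 2 and treated replicate 1 (numbers 1 and 2) are called set 1 here, and untreated replicate 3 and treated replicates 2 and 3 (numbers 4 and 5) set 2; what these numbers stand for is not given in the sources used here. Counts of same-group libraries from different sets differed by 42.4 to 62.3 chi-square units per degree of freedom, against 4.10 to 14.1 for all other same-group pairs, so no library repeated another of its group. Total counts ran from 26660038 to 43588773 per library. The interferon check genes rose as labelled, 8 of 9 in HCC38 and 9 of 9 in MDA-MB-231, and 4 of the 9 were also higher in set 2 than in set 1. Markers matched the lines in part. KRT19, an epithelial keratin, was at 308 CPM (counts scaled to a common library size) in untreated HCC38 and 0.43 in untreated MDA-MB-231. ESR1, the oestrogen receptor gene, was at 0.04 CPM in both. The sum of 12 line markers did not separate the lines in this way, at 3362 to 3594 CPM in untreated HCC38 and 3679 to 4000 CPM in untreated MDA-MB-231. The 9 leukocyte markers summed to 0.34 to 6.30 CPM per library; of the fibroblast and endothelial markers, COL1A1 stood at 2624 CPM in untreated HCC38 and 14.7 in untreated MDA-MB-231, while LUM, DCN, PDGFRA and CDH5 were below 2 CPM in each group.

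Promoter sequence is shared by the genes beyond their names. RefSeq (GRCh38.p14) gave windows from 250 bases before to 50 bases after a start site for 40 of the 47; AURKA, BIRC5, BUB3, FOXM1, TPX2, TTK and UBE2C had none in the table. A CHR element, searched as TTTGAA or TTTAAA on both strands, was in the windows of 37 of 40 genes (92.5%), against 2689 of 12330 tested genes with a window (21.8%). CCAAT, on both strands, was in 31 of 40 (77.5%, against 42.7%), and both motifs were in 26 of 40 (65%, against 9.24%). AURKB, BUB1 and CCNA2 had CCAAT but no CHR match in any window. These matches describe the letters in the windows; binding was not measured. The windows below are the 150 bases before the start site, and capitals mark both motifs. Genes named whatever their result came first where they had a CHR match, then called genes by size of the library set difference. For each gene the window with most matches was used, and 19 candidates with more than 30 bases in annotated exons were passed over. On the minus strand of chromosome 10, MKI67 (chr10:128126424-128126573) held CHR matches that begin 47 and 29 bases before the start, the latter sharing letters with a CCAAT match. The others shown are CDK1 (chr10:60778328-60778477, plus strand), CDC20 (chr1:43358831-43358980, plus), ESPL1 (chr12:53268149-53268298, plus), CENPF (chr1:214603045-214603194, plus), ASPM (chr1:197146670-197146819, minus), KIF11 (chr10:92592980-92593129, plus) and, as one with CCAAT boxes and no whole CHR in these bases, SPC25 (chr2:168890431-168890580, minus). Each lies before a RefSeq start site, with 0 to 26 bases in exons of the GENCODE basic annotation. The gene spans in the authors' deposited tables reach further for some: the windows of KIF11 and SPC25 lie inside the span of their own gene, and those of CDK1 and ASPM overlap it, while those of MKI67, CDC20, ESPL1 and CENPF end where the span begins.
MKI67: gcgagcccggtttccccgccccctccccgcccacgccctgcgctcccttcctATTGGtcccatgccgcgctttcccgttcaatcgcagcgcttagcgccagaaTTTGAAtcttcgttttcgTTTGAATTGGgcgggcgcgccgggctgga
CDK1: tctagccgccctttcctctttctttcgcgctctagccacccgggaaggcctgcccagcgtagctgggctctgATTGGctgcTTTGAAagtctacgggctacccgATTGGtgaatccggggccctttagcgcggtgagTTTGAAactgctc
CDC20: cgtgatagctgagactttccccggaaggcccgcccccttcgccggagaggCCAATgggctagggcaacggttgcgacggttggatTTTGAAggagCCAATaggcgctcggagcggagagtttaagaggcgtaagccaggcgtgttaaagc
ESPL1: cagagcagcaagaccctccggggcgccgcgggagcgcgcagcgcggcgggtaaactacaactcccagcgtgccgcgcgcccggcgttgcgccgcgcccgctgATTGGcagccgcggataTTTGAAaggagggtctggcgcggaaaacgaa
CENPF: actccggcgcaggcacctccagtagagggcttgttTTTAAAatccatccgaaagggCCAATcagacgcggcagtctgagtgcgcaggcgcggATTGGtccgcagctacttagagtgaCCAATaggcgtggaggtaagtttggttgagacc
ASPM: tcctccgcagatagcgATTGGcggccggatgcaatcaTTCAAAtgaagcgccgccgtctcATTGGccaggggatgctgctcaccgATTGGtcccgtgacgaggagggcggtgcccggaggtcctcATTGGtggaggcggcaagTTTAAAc
KIF11: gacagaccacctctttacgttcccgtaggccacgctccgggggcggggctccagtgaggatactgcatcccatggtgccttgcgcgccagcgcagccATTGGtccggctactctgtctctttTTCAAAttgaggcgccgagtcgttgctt
SPC25: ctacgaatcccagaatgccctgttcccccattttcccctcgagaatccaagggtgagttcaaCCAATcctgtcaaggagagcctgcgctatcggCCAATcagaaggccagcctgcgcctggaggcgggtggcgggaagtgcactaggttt
In CDK1 a CCAAT match begins 78 bases and a CHR match 69 bases before the start, and in ESPL1 these begin at 48 and 31 bases. KIF11 has the same order, CCAAT at 53 and CHR at 28 bases before the start. Other windows do not: in CDC20 the CHR match begins at 65 bases, between CCAAT matches at 100 and 55. In CENPF it begins at 115 bases, farther from the start than the CCAAT matches at 94, 58 and 33. In MKI67 the last CCAAT match, at 24 bases, begins after the CHR match at 29.

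**Figure D1:**
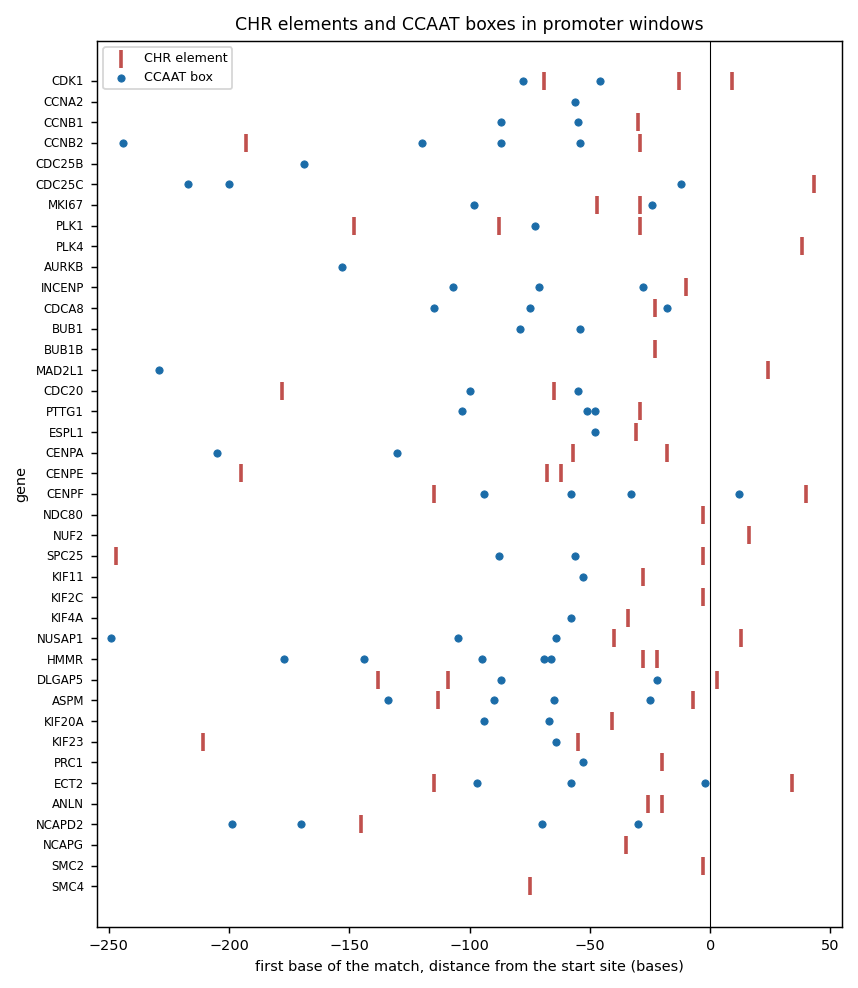
Position of the first base of each CHR match (red bars) and CCAAT match (blue points) relative to the start site, in bases, for 40 genes, using for each the RefSeq window with most matches. Of 37 genes with a CHR match, 29 have one within the 100 bases before the start. Over all windows, of which a gene can have several, the last CHR match lies downstream of the last CCAAT match in 25 of 29 with both motifs. This includes matches in the 50 bases after the start, on which CENPF, ECT2 and DLGAP5, among others, depend. CDC25B has a CHR match in another of its windows.

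Per length of transcript, the genes spanned a wide range. The authors' FPKM averaged over all 12 libraries was highest for UBE2C (220 FPKM), the ubiquitin-conjugating enzyme that works with the anaphase-promoting complex. Next came CDC20, the activator of that complex (208 FPKM), TPX2, the activator of Aurora A (185 FPKM), CDK1 (181 FPKM) and CCNB1 (180 FPKM). The order of the group means differed between the lines: CCNB1 was highest in MDA-MB-231 (230.0 FPKM untreated and 257 FPKM treated, against 216 and 239 FPKM for UBE2C), and PTTG1, at 256 FPKM, was also above UBE2C in treated MDA-MB-231. In untreated cells this came from replicate 3, with 315 FPKM for CCNB1 and 259 FPKM for UBE2C. In untreated replicates 1 and 2 UBE2C was above CCNB1, at 194 and 194 FPKM against 186 and 189 FPKM. In HCC38 UBE2C was highest, at 206 and 219 FPKM. The lowest over all libraries were ESPL1, which encodes separase (12.4 FPKM), CDC25C (16.7 FPKM) and PLK4, the kinase of centriole duplication (17.2 FPKM). NUSAP1 and PRC1, which bind spindle microtubules and the central spindle, were at odds between the deposited tables: 122 and 128 FPKM on average, but 0.10 to 0.88 and 0.92 to 1.74 CPM. Their counts are uncertain and rest on few reads, so their fold changes are given only as values.

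The difference shared by most of these genes followed the MDA-MB-231 library set. All but 1 of the 47 genes were higher in set 2 than in set 1 (46 higher, 0 lower), with a median log2 fold change of 0.64 (1.56-fold), where 10.8% of the tested genes were higher, 12.9% lower and 23.7% called in either direction, and the median over all of them was -0.00. The exception was NUSAP1 (log2 fold change 0.82, SE 0.42, adjusted p = 0.171), one of the genes with few counts. In 45 of 47 genes every set 2 library was above every set 1 library, which held for 13.5% of tested genes. The share of all counts that the 47 genes took was 0.845 to 0.851% in the 3 libraries of set 1, and 1.44%, 1.24% and 1.19% in set 2; in HCC38 it was 0.905 to 1.02%. Untreated replicate 3 was the highest of the 6 libraries for 41 of 47 genes, against 21.3% of tested genes; the others were CDC25B, CDC25C, BIRC5, TTK, NUSAP1 and PRC1.

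**Figure D2:**
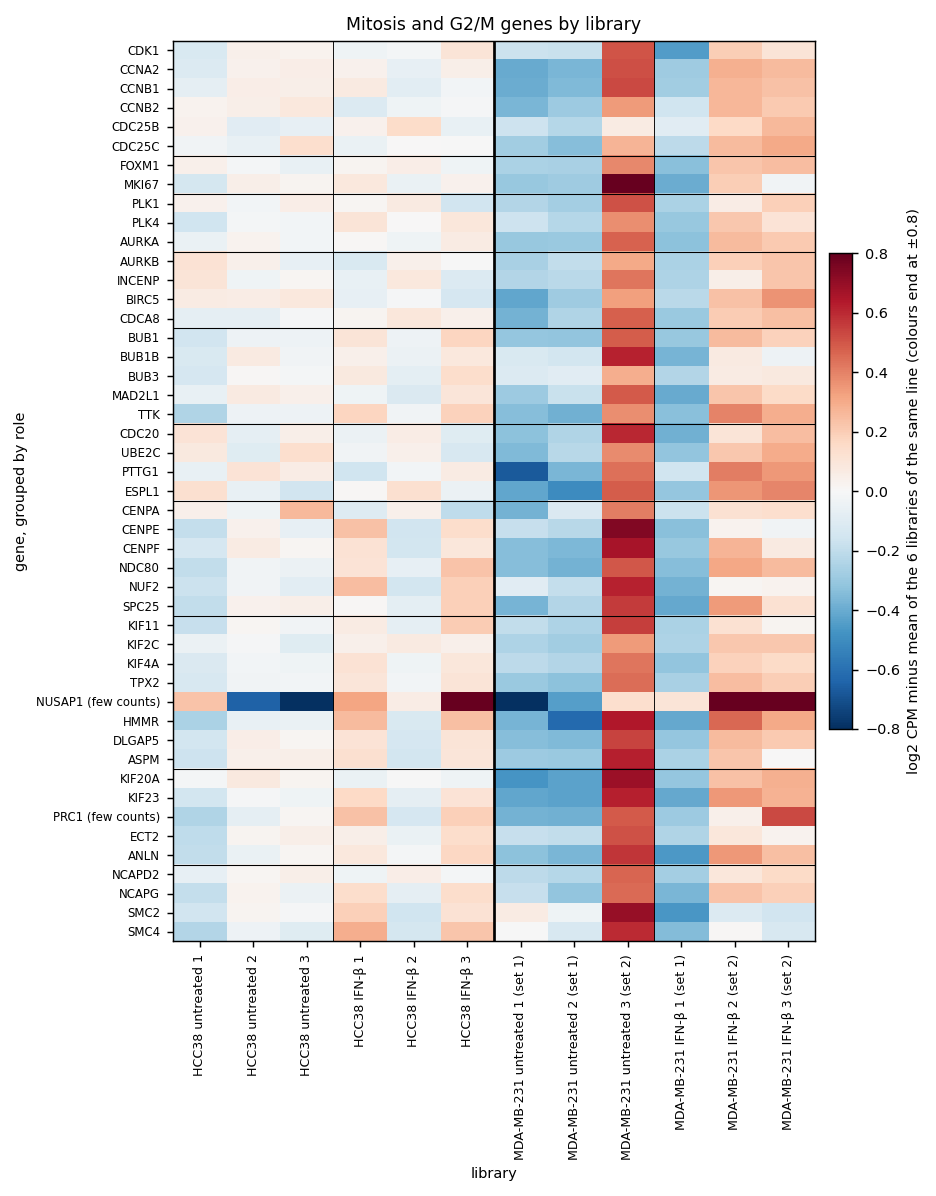
Log2 CPM of each gene (rows, grouped by role) in each library (columns), minus the mean of the 6 libraries of the same line; colours end at 0.8 either way. The 3 set 1 columns of MDA-MB-231 are mostly blue and the 3 set 2 columns mostly red, untreated replicate 3 the most, while the HCC38 columns vary little; the NUSAP1 and PRC1 rows rest on few counts.

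Among the genes that start mitosis, CCNB1, cyclin B1, stood at 241 and 249 CPM in untreated and 262 CPM in treated set 1, and at 459 CPM in untreated and 381 and 374 CPM in treated set 2. Its set difference was 0.71 on the log2 scale (SE 0.08, adjusted p = 1.43e-06). CDK1, its kinase, stood at 232, 231 and 191 CPM in set 1 and 370, 300 and 281 CPM in set 2, in the order untreated then treated used from here on, a difference of 0.64 (SE 0.07, adjusted p = 1.22e-06). All 6 genes of the cyclin, CDK1 and CDC25 group were higher in set 2. CDC25B, a phosphatase that starts CDK1 at the centrosome, had the smallest difference of the 47 at 0.28 (SE 0.07, adjusted p = 0.0055); its CPM was 154, 147 and 162 in set 1 and 180, 192 and 206 in set 2. CCNA2, CCNB2 and CDC25C were at 0.73, 0.53 and 0.54.

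MKI67, which encodes Ki-67, a surfactant of mitotic chromosomes and the usual stain for cycling cells, had 698, 707 and 653 CPM in set 1 and 1518, 987 and 846 CPM in set 2. The difference was 0.80 (SE 0.10, adjusted p = 6.9e-06), and the untreated library of set 2 was far above both treated libraries. FOXM1, the transcription factor of the G2 genes, was at 198, 197 and 188 CPM against 308, 276 and 281 CPM, a difference of 0.60 (SE 0.06, adjusted p = 7.69e-07). The kinases PLK1 and AURKA differed by 0.58 and 0.66, and PLK4 by 0.52. PLK1 went from 101, 98.5 and 99.9 CPM to 170, 124 and 136 CPM, and AURKA from 159, 160 and 156 CPM to 272, 234 and 226 CPM, with no overlap in either.

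The chromosomal passenger complex, Aurora B with its partners, was higher throughout: AURKB 0.50, INCENP 0.52, BIRC5 (survivin) 0.59 and CDCA8 (borealin) 0.65. AURKB had 129, 134 and 129 CPM in set 1 and 190, 176 and 180 CPM in set 2. All 5 checkpoint genes were higher, from BUB3 at 0.35, which docks the checkpoint proteins at kinetochores, to TTK at 0.71, the kinase that starts checkpoint signalling; BUB1, BUB1B and MAD2L1 lay between at 0.66, 0.57 and 0.66. On log2(FPKM + 1) the difference of TTK was 0.04 (SE 0.21), since the authors' FPKM in treated replicate 1 was 80.0 against 31.6 and 31.3 in the untreated libraries of the set, so its count-based value is uncertain.

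Genes of anaphase and the kinetochore gave values of the same size. CDC20 had 251, 267 and 241 CPM in set 1 and 478, 339 and 374 CPM in set 2, a difference of 0.72 (SE 0.08, adjusted p = 1.49e-06); UBE2C, PTTG1 (securin, which has near-identical copies that may share its reads) and ESPL1 differed by 0.62, 0.75 and 0.81. The kinetochore group was led by CENPF, SPC25 and NDC80 at 0.75, 0.75 and 0.74, with CENPE, the kinetochore kinesin, at 0.64, NUF2 at 0.58 and CENPA, the histone of the centromere, at 0.48. CENPE was the other gene whose files disagreed, with 0.16 (SE 0.22) on log2(FPKM + 1).

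Spindle and cytokinesis genes held the largest differences. HMMR, a spindle-pole protein, was at 63.7, 53.4 and 61.9 CPM in set 1 and 128, 113 and 101 CPM in set 2, a difference of 0.96 (SE 0.10, adjusted p = 1.83e-06). KIF23, a kinesin of the central spindle, followed at 0.89 (SE 0.08, adjusted p = 1.79e-07), with 143, 141 and 143 CPM against 293, 242 and 230 CPM. KIF20A, a kinesin that brings the passenger complex to the midzone, was at 0.85 (SE 0.09), from 111, 114 and 124 CPM to 246, 180 and 187 CPM, and ANLN, anillin of the contractile ring, at 0.84 (SE 0.07). The remaining spindle genes KIF11, KIF2C, KIF4A, TPX2, DLGAP5 and ASPM ran from 0.53 to 0.71, ECT2, the activator of RhoA at the division plane, was at 0.50, and PRC1, with few counts, at 0.75. Condensin genes, which compact chromosomes, were higher by 0.54 for NCAPD2, 0.64 for NCAPG, 0.51 for SMC2 and 0.47 for SMC4; SMC2 and SMC4 were the genes whose sets overlapped.

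Tested within a treatment, set 2 was higher for 44 of 47 genes in untreated cells (median 0.76), where 7.62% of tested genes were higher and 8.47% lower, and for 40 of 47 in treated cells (median 0.51), where 6.06% were higher and 6.97% lower. The untreated comparison sets replicate 3 alone against replicates 1 and 2, and the treated one replicate 1 alone against replicates 2 and 3; the lone library is assumed to vary like the others. MKI67 differed by 1.11 (SE 0.09) in untreated and 0.49 (SE 0.10) in treated cells, and HMMR by 1.13 (SE 0.13) and 0.79 (SE 0.14). No gene of the 47 passed the test of the difference between these values. Of all tested genes 0.0607% passed it (0.0166% higher, 0.0441% lower). That test rests on a lone library in each treatment, so it cannot decide whether the set difference depends on treatment.

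**Figure D3:**
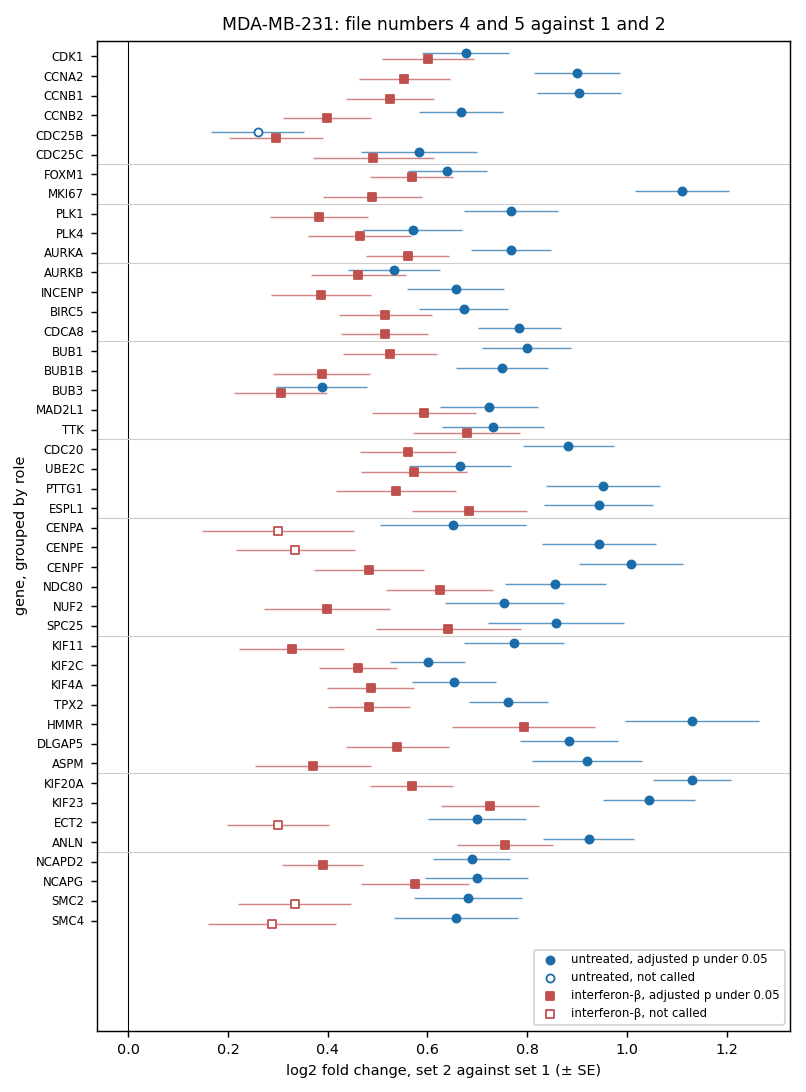
Log2 fold change of set 2 against set 1 (± SE) for 45 genes in untreated (circles) and interferon-treated (squares) MDA-MB-231; filled marks have adjusted p under 0.05, and NUSAP1 and PRC1 are left out for few counts. Every point is above 0, and most untreated values exceed the treated ones.

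Lists of genes outside the 47 are set against the 10.8% of tested genes that were higher and the 12.9% that were lower in set 2. Of 59 other mitotic genes 56 were higher in set 2 (median 0.55), with CDCA3 at 0.98, CIT at 0.78 and ZWINT at 0.59. Of 28 S phase genes 21 were higher (median 0.29), led by RRM2 at 0.62, TYMS at 0.49 and RRM1 at 0.47. Subunits of the anaphase-promoting complex, whose amounts vary little over the cycle, gave 2 higher and 1 lower of 16 (median 0.07), near those shares, and the DREAM, B-MYB-MuvB and E2F regulators 6 higher and 1 lower of 22 (median 0.06), with LIN9 at 0.41 and RBL2, which encodes the p130 pocket protein of DREAM, at -0.33. Among cyclin-dependent kinase inhibitors and genes of G2 arrest, 3 were higher and 3 lower of 12 tested; CCNG2, a cyclin of resting cells, fell by 0.64 and CDKN1C, the inhibitor p57, fell by 0.86. Cohesin and condensin II genes gave 5 higher of 13, and further G2/M regulators 6 higher and 3 lower of 13, with the CDK1 inhibitory kinase WEE1 at 0.53. The 13 mitochondrially encoded genes were all higher in set 2 (median 0.78). All genes with a symbol that begins with MT-, a wider group than these 13, held 2.50, 2.07 and 1.07% of counts in set 1. In set 2 that wider group held 3.39, 2.53 and 1.51%. The part of mitochondrial transcripts in the result was not tested.

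Interferon-β in MDA-MB-231, compared by edgeR with a term for the set, gave lower levels for 12 of the 47 genes and higher for 0. Of all tested genes, 11% were lower, 11.6% higher and 22.6% called in either direction. On log2(FPKM + 1) limma called 3 of the 47 lower (CDK1, SMC2 and SMC4), where 3.85% of tested genes were lower. The median log2 fold change of the 47 was -0.14, against 0.01 over all tested genes, and 39 of 47 values were negative. Condensin held the largest decreases. SMC2, an ATPase arm of condensin, was at 264, 246 and 409 CPM in untreated replicates 1 to 3 and at 183, 234 and 227 CPM in the treated ones, and fell by 0.65 (SE 0.09, adjusted p = 2.14e-05); it was the only gene of the 47 whose treated and untreated libraries did not overlap, as was so for 27% of tested genes. SMC4, the other arm, had 499, 458 and 755 CPM untreated and 393, 503 and 457 CPM treated, and fell by 0.47 (SE 0.10, adjusted p = 0.00169), with overlap. NCAPD2, a regulatory subunit, fell by 0.20.

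The other called genes came from several roles. At the kinetochore, CENPE fell by 0.44 (SE 0.11, adjusted p = 0.00509) and NUF2 by 0.42 (SE 0.09, adjusted p = 0.00319). NUF2 had 77.2, 71.8 and 126 CPM untreated and 63.2, 82.8 and 83.8 CPM treated. In the checkpoint, BUB1B (BubR1) fell by 0.43 (SE 0.08, adjusted p = 0.000564), from 82.9, 81.5 and 138 CPM to 69.6, 94.6 and 87.5 CPM, and MAD2L1 fell by 0.24. On log2(FPKM + 1) the value of BUB1B was -0.15 (SE 0.09, adjusted p = 0.332 by limma) and that of MAD2L1 -0.095 (SE 0.08), neither called. MKI67 fell by 0.42 (SE 0.10, adjusted p = 0.00401) and CDK1 by 0.31 (SE 0.07, adjusted p = 0.00184). CDC20, KIF11 (the kinesin that separates spindle poles) and ECT2 fell by 0.26, 0.26 and 0.25. Of the genes not called, CCNB1 was at -0.09 (SE 0.08), PLK1 at -0.19 (SE 0.08), AURKA at -0.14 (SE 0.06), AURKB at -0.06 (SE 0.07), BIRC5 at 0.05 (SE 0.07) and FOXM1 at -0.11 (SE 0.06), and no gene of the passenger complex or the entry kinases passed.

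These 12 calls rested on the term for the set and, SMC2 apart, mostly on set 2, whose only untreated library is replicate 3, the highest. Without the term 0 of 47 were called by edgeR, where 12.5% of tested genes were called, and the median was 0.06; within set 1, 2 untreated against 1 treated library, 1 gene was called (SMC2, -0.48, SE 0.11, adjusted p = 0.0138; 6.49% of tested genes called, 3.93% higher and 2.56% lower) with a median of 0.00, and within set 2, 1 untreated against 2 treated, 26 were lower (20.5% of tested genes called, 9.96% higher and 10.5% lower) with a median of -0.27. Leaving out untreated replicate 3, the only untreated library of set 2, left 1 call (SMC2), where 6.32% of tested genes were called. Leaving out treated replicate 1, the only treated library of set 1, gave 25, where 19.9% were. In each of these fits 1 set alone informs the response, so they repeat the within-set tests and add no separate evidence. Scaled by library totals, 1 of the 47 was higher and 7 lower, and all tested genes split into 3067 higher and 1226 lower in place of 2102 and 1993.

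Around the 47, where 11% of tested genes were lower and 11.6% higher, S phase genes gave 19 lower and 0 higher of 28 (median -0.28), with GINS4 at -0.98 and MCM6 at -0.66. Other mitotic genes gave 18 lower of 59 (median -0.13), led by KNL1, the kinetochore scaffold, at -0.48. Cohesin and condensin II genes gave 8 lower of 13 (median -0.24), with STAG1 at -0.58 and SMC1A at -0.38. Among cyclin-dependent kinase inhibitors and genes of G2 arrest 4 were higher and 2 lower of 12 tested; CDKN1A, the inhibitor p21, was at 0.63 (SE 0.13, adjusted p = 0.00116) and CDKN1B, p27, at 0.29 (SE 0.07, adjusted p = 0.0042). The DREAM, B-MYB-MuvB and E2F regulators gave 6 lower of 22, with RBL1 at -0.37 and E2F8 at -0.39, and 3 of 16 anaphase-promoting complex subunits and 4 of 13 G2/M regulators were lower, 2 of the latter higher. Of the 13 mitochondrially encoded genes 12 were lower (median -0.89), and their part in the result was not tested.

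In HCC38, none of the 47 genes passed the test for interferon-β. By edgeR 0 were called, where 5.81% of tested genes were higher, 4.75% lower and 10.6% called in either direction. DESeq2 called 1 higher, where 7.47% of tested genes were higher, and limma on log2(FPKM + 1) called 0, where 5.86% were called. The median was 0.06 against -0.00 over all tested genes, and leaving out treated replicate 2 gave 5 higher, where 6.25% of tested genes were higher. Apart from NUSAP1, values ran from -0.18 to 0.26. The smallest p-values belonged to TTK at 0.22 (SE 0.07, adjusted p = 0.0653), SMC4 at 0.26 (SE 0.09, adjusted p = 0.0933) and HMMR at 0.25 (SE 0.10, adjusted p = 0.114). TTK had 59.3, 67.9 and 67.9 CPM untreated and 78.7, 68.4 and 79.6 CPM treated. SMC4 had 708, 809 and 780 CPM untreated and 1018, 757 and 970 CPM treated, and its groups overlapped through treated replicate 2. In 8 of 47 genes the groups did not overlap (CCNB2, PLK4, BIRC5, CDCA8, BUB1, TTK, KIF2C and TPX2), against 27% of tested genes.

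Of the widely used proliferation genes in HCC38, MKI67 was at 515, 586 and 576 CPM untreated and 601, 546 and 581 CPM treated (0.04, SE 0.10), and CDK1 at 326, 365 and 362 CPM and 347, 351 and 382 CPM (0.04, SE 0.06). CCNB1, PLK1, AURKA, AURKB, FOXM1 and CDC20 were between -0.06 and 0.03, and BIRC5 was at -0.14 (SE 0.06). Outside the 47, other mitotic genes gave 3 higher and 3 lower of 59, near the 5.81% and 4.75% of all tested genes, with CENPW at -0.46 and CKS2 at -0.41, and S phase genes 4 higher and 2 lower of 28, with MCM3 at 0.30. CDKN1A was at 0.54 (SE 0.13, adjusted p = 0.0117), and the G2/M regulators MASTL and CDC25A at 0.51 and 0.37. Of the 13 mitochondrially encoded genes 8 were lower in treated HCC38 (median -0.64).

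**Figure D4:**
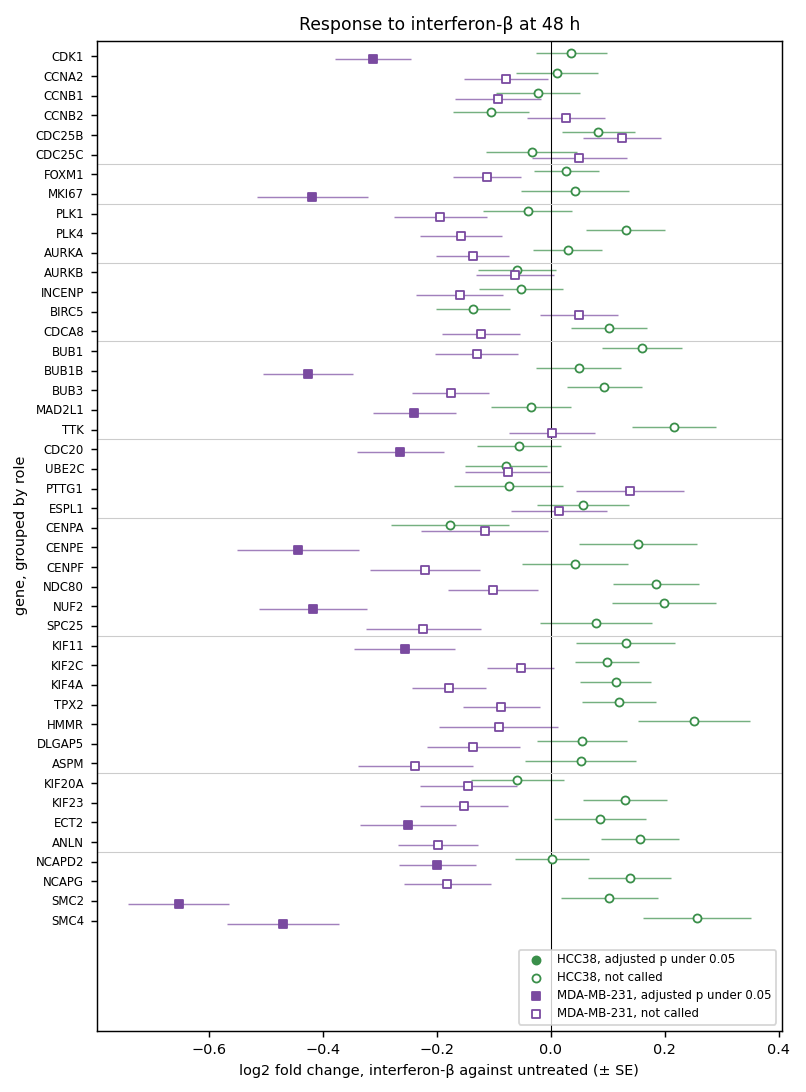
Log2 fold change after 48 h of interferon-β (± SE) in HCC38 (circles) and MDA-MB-231 (squares, fitted with the set term) for 45 genes; filled marks have adjusted p under 0.05. HCC38 points lie from -0.18 to 0.26 with none filled, and the filled MDA-MB-231 points lie from -0.65 to -0.20.

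Compared directly, the response was lower in MDA-MB-231 than in HCC38 for 10 of 47 genes and higher for 0, where 6.47% of tested genes were lower, 5.77% higher and 12.2% called in either direction; the median difference was -0.21. The 10 were SMC2, SMC4, NUF2, CENPE, BUB1B, MKI67, KIF11, ANLN, CDK1 and KIF4A, a chromosome-bound kinesin. SMC2 differed by -0.76 (SE 0.12, adjusted p = 0.00045) and SMC4 by -0.73 (SE 0.14, adjusted p = 0.00168), and these 2 were called with any 1 of the 12 libraries left out. NUF2 differed by -0.62 (SE 0.13, adjusted p = 0.0043) and CENPE by -0.60 (SE 0.15, adjusted p = 0.0123). Without the set term 0 were called by edgeR, where 3.52% of tested genes were called. Without untreated MDA-MB-231 replicate 3, when only set 1 informs the MDA-MB-231 response, the count was 2, where 4.41% of tested genes were called. On log2(FPKM + 1) limma called 2 (SMC2 and SMC4), where 4.23% of tested genes were called. Of 28 S phase genes 19 also had the lower response in MDA-MB-231 (median -0.39), with MCM6 at -0.76 and CDC6 at -0.63, and of 13 cohesin and condensin II genes 8 did. Scaled by library totals, 1 of the 47 was higher and 5 lower, and all tested genes split into 1543 higher and 691 lower in place of 1046 and 1172.

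Between the untreated lines, 28 of the 47 genes were higher and 13 lower in MDA-MB-231, where 38.4% of tested genes were higher, 41.4% lower and 79.8% called in either direction; the median was 0.23. AURKB, the catalytic subunit of the passenger complex, had 42.2, 40.1 and 37.2 CPM in untreated HCC38 and 129, 134 and 190 CPM in untreated MDA-MB-231, a log2 difference of 1.98 (SE 0.07, adjusted p = 4.3e-16). BUB3 had 92.9, 103 and 101 CPM against 302, 307 and 399 CPM, a difference of 1.81 (SE 0.07, adjusted p = 1.3e-15). ANLN had 271, 299 and 314 CPM against 624, 608 and 1168 CPM, a difference of 1.51 (SE 0.07, adjusted p = 4.54e-14). In each, every MDA-MB-231 library was above every HCC38 library whatever its set. CCNB1, KIF11, CDCA8, PTTG1, TTK and KIF2C followed at 1.12, 1.06, 1.02, 1.01, 0.97 and 0.93, and NUSAP1 at 1.22 on few counts.

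Lower in untreated MDA-MB-231 were BUB1B at -0.85 (SE 0.08), with 176, 201 and 188 CPM in HCC38 and 82.9, 81.5 and 138 CPM in MDA-MB-231, CDC25B at -0.80 (SE 0.07), CENPA at -0.70 (SE 0.11), KIF20A at -0.66 (SE 0.08), HMMR at -0.55, ASPM at -0.54 and ECT2 at -0.40. For KIF20A, HMMR, ASPM and ECT2 the decrease came from set 1. The untreated set 2 library had 246, 128, 335 and 285 CPM of them in that order. Untreated HCC38 had 247 to 264, 114 to 131, 314 to 363 and 259 to 308 CPM. With both sets fitted, the partners of one complex differed in direction: AURKB, CDCA8 and INCENP were higher by 1.98, 1.02 and 0.39, while BIRC5 was lower at -0.39 (SE 0.07, adjusted p = 1.73e-05). For INCENP and BIRC5 this depended on the set. INCENP had 114, 104 and 108 CPM in HCC38 and 114, 116 and 182 CPM in MDA-MB-231, so its increase came from the set 2 library. BIRC5 had 137, 137 and 139 CPM against 80.0, 87.8 and 134 CPM, so its decrease came mostly from set 1. BUB3 and BUB1B, which act together at the checkpoint, also differed in direction. MKI67 was at 0.84, FOXM1 at 0.48, AURKA at 0.37, CDC20 at 0.23, CDK1 at -0.27 and PLK1 at -0.27. Of these, CDC20 was at -0.18 (adjusted p = 0.0223) and AURKA at -0.0024 against set 1 alone, and CDK1 at 0.074 and PLK1 at 0.14 against set 2 alone. UBE2C, CCNA2, CCNB2, CENPE and CDC25C were not called, nor was PRC1.

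The general direction between the lines depended on the set. Against set 1 alone, the median over the 47 in untreated cells was -0.14, with 17 values positive, and against set 2 alone 0.68, with 39 positive. Among treated cells 16 genes were higher and 15 lower, where 38.8% of tested genes were higher, 40.6% lower and 79.4% called in either direction, and the median of 0.01 was -0.04 under median-of-ratios scaling and by DESeq2. AURKB stayed at 1.98 (SE 0.07) and BUB3 at 1.54 (SE 0.07); BUB1B was at -1.32 (SE 0.08), PTTG1 at 1.22, ANLN at 1.16, SMC4 at -1.10, CCNB1 at 1.05, HMMR at -0.90 and ASPM at -0.84.

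**Figure D5:**
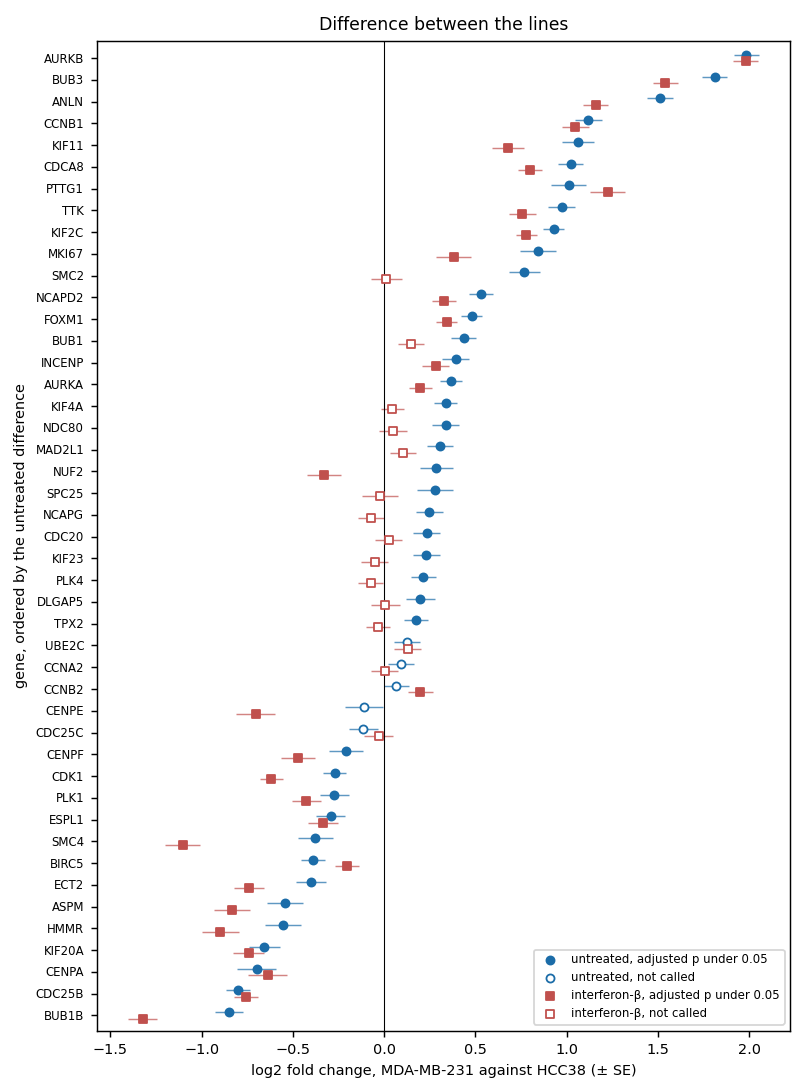
Log2 fold change of MDA-MB-231 against HCC38 (± SE) in untreated (circles) and interferon-treated (squares) libraries for 45 genes, ordered by the untreated value; filled marks have adjusted p under 0.05. AURKB and BUB3 stand at the top with 1.98 and 1.81 untreated, and BUB1B at the bottom with -0.85.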

How the data were processed

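RNA-seq was measured in 12 libraries, 3 per group of line by treatment. Per the labels' protocols, RNA was taken with an RNeasy kit and libraries made with the NEBNext Ultra II Directional kit. Per the submitters' processing notes, fastp 0.23.2, HTSeq 2.0.2 and Cufflinks 2.2.1 were used with GRCh38.p13; the aligner is not given in the sources used here, nor is whether counting used strand. The deposited tables give whole-number counts per gene and, separately, FPKM values by the authors, of which 22 entries were not marked OK.

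Counts were tested with edgeR 4.0.16 (R 4.3.3; quasi-likelihood test, filterByExpr with a minimum count of 10, TMM), fitting all 12 libraries with 1 coefficient per group and a term for the MDA-MB-231 library set. A gene was called where its p, adjusted by Benjamini-Hochberg across 18121 genes, was under 0.05. CPM use the TMM-scaled library sizes. SE is the log2 fold change divided by the root of F. DESeq2 1.42.0, limma 3.58.1 on log2(FPKM + 1) and log2(FPKM + 0.1), other scalings, no filter, no set term, a replicate block, each set and each library left out were alternatives. The named genes were every called gene, at most 10 by size, and 9 fixed genes; of each list at most the 3 called genes with the smallest p; an S phase gene that this rule names is not reported here. Promoter windows with more than 30 bases in annotated exons were not printed. The members, lists and the set term were chosen with earlier results of these data known.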

Additional observations from a re-analysis of the deposited data

Results flagged for a closer look

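The response to interferon-β differed between the lines for 10 genes by the test of that difference in edgeR (MDA-MB-231 minus HCC38, log2, adjusted p under 0.05). The values were -0.76 for SMC2, -0.73 for SMC4, -0.62 for NUF2, -0.60 for CENPE, -0.47 for BUB1B, -0.46 for MKI67, -0.39 for KIF11, -0.35 for ANLN, -0.35 for CDK1 and -0.29 for KIF4A. The line and its medium cannot be told apart. Without untreated MDA-MB-231 replicate 3, only set 1 informs the MDA-MB-231 response, and 8 of the 10 calls, SMC2 and SMC4 apart, were lost. The 8 values then ran from -0.44 for NUF2 to -0.15 for MKI67. Without the set term all 10 were lost, and limma on log2(FPKM + 1) called SMC2 and SMC4.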

How the results depend on the processing

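The difference between the library sets gave 46 of 47 calls under TMM, median-of-ratios scaling and library totals, and 45 by DESeq2. Of all tested genes 23.5 to 24.6% were called under these settings. Without the set term, calls among the 47 were 0 in the MDA-MB-231 response (median 0.060) and 0 in the difference of responses (median -0.038). Between untreated lines they were 21, where 75.5% of tested genes were called, and the median between treated lines was 0.14. Calls over all genes were 659 (HCC38), 2272 (MDA-MB-231) and 637 (difference). Within set 1, the MDA-MB-231 response had 1 call, a median of 0.0022 and 1176 calls over all genes, and the difference 1 call, -0.088 and 802; medians between the lines were -0.14 untreated and -0.24 treated. Within set 2 there were 26 calls with a median of -0.27, 24 with -0.36, and medians of 0.68 and 0.31. In HCC38, 1 of the 47 was called under median-of-ratios scaling, 2 without the filter and 1 by DESeq2. Of all tested genes 10.5%, 6.69% and 12.5% were called in the same order. Library totals gave 6 calls in the difference with a median of -0.13, where all genes had 0.12 and 12.3% of them were called. No filter gave 18, where 7.97% of tested genes were called.

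By limma on log2(FPKM + 1), log2(FPKM + 0.1) and log2(FPKM + 1) without a filter, all genes called were 895, 737 and 754 in HCC38, 1911, 1815 and 1626 in MDA-MB-231, 646, 551 and 503 for the difference, and 2284, 2157 and 1816 for the sets. In the same order the 47 gave 3, 3 and 1 calls (medians -0.056, -0.057 and -0.056) in MDA-MB-231 and 2, 2 and 1 (medians -0.11, -0.12 and -0.11) for the difference. On log2(FPKM + 1), called genes split 1323 higher and 588 lower in MDA-MB-231 (counts 2102 and 1993), 616 and 279 in HCC38 (counts 1052 and 861; without the set term 433 and 226), and 422 and 224 for the difference (counts 1046 and 1172).

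In HCC38 the titles' replicate numbers did not pair the libraries (same-number correlations of deviations from the group mean 0.04, -0.12 and 0.02). In MDA-MB-231 these correlations (0.27, -0.26 and 0.25) followed the library set, which was not removed, so pairing could not be judged there. With a replicate block, the 47 gave 6 calls in MDA-MB-231 (2099 over all genes), 3 in the difference (871), 21 between untreated lines (8987) and 6 between sets (170), and 1160 genes were called in HCC38.

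Leaving out 1 library gave 0 to 5 calls in HCC38 (all genes 1209 to 2225), 1 to 25 in MDA-MB-231 (median -0.27 to -0.00095, all genes 1177 to 4415), 2 to 24 in the difference (-0.36 to -0.092, 821 to 2899), medians of 0.14 to 0.26 between untreated and -0.11 to 0.043 between treated lines, and for the sets a median of 0.51 to 0.76 with 2354 to 4522 genes called. Single genes changed sign between the lines within a set: untreated, AURKA -0.0024 and CDC20 -0.18 in set 1, CDK1 0.074 and PLK1 0.14 in set 2; treated, AURKA -0.064 and CDC20 -0.23 in set 1, BIRC5 0.068 in set 2. The causes were not tested. For the MDA-MB-231 response and the difference, both ends of the ranges of calls and medians came from leaving out untreated replicate 3 or treated replicate 1. Either leaves 1 set alone to inform the response. NUSAP1 and PRC1 are limited by their few counts.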
